A study of Mus musculus with 4 samples.

Results

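DNA methylation and histone modifying enzymes set the chemical marks that decide which stretches of chromatin a T cell can read. The set described here holds 45 mouse genes, chosen by name for these functions and all found by symbol among the 21937 genes of the count table. By role they are DNA methylation (Dnmt1, Dnmt3a, Dnmt3b and Uhrf1), DNA demethylation (the Tet genes), Polycomb repressive complex 2, lysine methyltransferases, lysine demethylases, deacetylases, acetyltransferases and arginine methyltransferases. Of the 45, Tet1 fell under the low filter of a mean of 2 CPM (a gene's counts as a share of its library, scaled alike for every library), which left 44 members among 9926 genes tested.

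The study measured RNA by sequencing in splenic CD4+ T cells of 6-week-old B6 mice after stimulation with PMA and ionomycin, drugs that imitate T cell receptor signalling. It addressed the ubiquitin ligases Itch and WWP2 of the NEDD4 family through 4 libraries, 1 for each genotype. These were a library whose label names deletion of both ligases, an Itch KO (floxed Itch with Cd4cre, so that deletion is limited to cells that have expressed Cd4, that is T cells), a WWP2 KO (WWP2-/-) and a wild type. All 4 carried the same stimulation, and unstimulated cells were not analysed here. Whether a library came from 1 mouse or a pool, how long the stimulation lasted, and which Itch allele the doubly deleted mouse carried are not stated in the labels.

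Depth was alike, between 17130747 and 17990392 counts. Wwp2 had 1135 reads in the library labelled double KO, 1332 in the Itch KO, 4 in the WWP2 KO and 1363 in wild type, 0.777-fold the wild-type level in the first (0.717 to 0.841), which goes against its WWP2 label. It is therefore written of as the library labelled double KO. For Itch there were 2389, 1914, 1996 and 2083 reads in the same order, which checks nothing, since a whole-gene count includes exons outside a deleted part. T cell markers summed to between 2766 and 2864 CPM, but single ones differed: of 9 tested, relative to wild type, Cd4 was 2.16-fold and Cd3g 2.19-fold higher and Cd5 2.36-fold lower in the library labelled double KO. Sums for B cell, neutrophil, and erythroid and platelet lists were at most 3.75 CPM in any library. Markers of CD8 and NK cells (10.9, 23.6, 13.6 and 17.5 CPM in the order above), of monocytes, macrophages and dendritic cells (23.1, 20.1, 5.60 and 6.92 CPM) and of mast cells and basophils (5.38, 11.0, 28.9 and 24.9 CPM) were also low, with Pax5, Fcgr1 and Fcer1a at 0 reads in every library. The plasma cell list (471, 209, 159 and 146 CPM) was carried by Prdm1 and Xbp1, which T cells also express; Sdc1 had 172, 27, 13 and 7 reads, and Tnfrsf17 was at 0. Mitosis genes summed to 1041 CPM in the library labelled double KO, 397 in the Itch KO, 98.6 in the WWP2 KO and 104 in wild type, and replication genes to 1413, 1280.3, 1102 and 1158 CPM. In bulk RNA, fewer cells of a type and less RNA per cell cannot be told apart.

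As background, DNMT1 copies methyl groups onto new DNA strands, guided by UHRF1, which binds hemimethylated DNA behind the replication fork, while DNMT3A and DNMT3B place new methyl groups and TET enzymes oxidise them. EZH2 or EZH1, with EED and SUZ12, writes the repressive Polycomb mark, and KDM6B removes it. Acetyltransferases open chromatin and deacetylases close it. In CD4+ T cells these enzymes are known for fixing the choice between helper lineages, where methylation and the Polycomb mark keep the cytokine genes of other lineages silent.

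The promoters of 4 genes are shown because they belong to genes that the results turn on: Uhrf1 and Kat2b, the members highest relative to wild type in the library labelled double KO, Dnmt3b, one of those 2-fold lower there, and Ezh2, higher in Itch KO. Each is the 250 bases before an annotated start, from RefSeq on GRCm38.p6, on the gene's strand, 5′ to 3′, and where a gene has several starts the most upstream one is given. The counts were made on mm9, so these coordinates belong to the RefSeq table only. Capitals mark an E2F-type core (TTCCCGC or TTTGGCGC, either strand) or a CCAAT box (either strand, ATTGG on the other).
Uhrf1, chr17:56303087-56303336, plus strand: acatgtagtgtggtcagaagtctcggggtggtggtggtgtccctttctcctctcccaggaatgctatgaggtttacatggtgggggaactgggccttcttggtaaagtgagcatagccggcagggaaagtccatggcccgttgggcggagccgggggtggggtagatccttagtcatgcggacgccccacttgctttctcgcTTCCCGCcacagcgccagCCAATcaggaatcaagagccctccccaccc
Kat2b, chr17:53566721-53566970, plus strand: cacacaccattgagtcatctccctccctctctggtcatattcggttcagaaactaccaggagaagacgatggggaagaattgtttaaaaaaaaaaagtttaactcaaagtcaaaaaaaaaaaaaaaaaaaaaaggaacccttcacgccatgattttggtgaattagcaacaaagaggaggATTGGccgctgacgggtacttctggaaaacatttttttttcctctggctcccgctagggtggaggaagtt
Ezh2, chr6:47595031-47595280, minus strand: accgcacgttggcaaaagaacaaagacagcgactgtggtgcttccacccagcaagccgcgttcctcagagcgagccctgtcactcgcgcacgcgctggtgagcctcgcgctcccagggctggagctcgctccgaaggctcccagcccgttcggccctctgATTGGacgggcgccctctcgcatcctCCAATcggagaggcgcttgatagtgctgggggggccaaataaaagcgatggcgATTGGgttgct
Dnmt3b, chr2:153649199-153649448, plus strand: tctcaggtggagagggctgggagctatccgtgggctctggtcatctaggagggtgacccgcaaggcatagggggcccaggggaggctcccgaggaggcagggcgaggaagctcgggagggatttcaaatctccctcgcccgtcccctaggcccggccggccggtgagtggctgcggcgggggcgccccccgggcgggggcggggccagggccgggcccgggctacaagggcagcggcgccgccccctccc
The Uhrf1 window held an E2F-type core beginning 48 bases before the start and a CCAAT box 30 bases before it, which do not overlap. The Ezh2 window held CCAAT boxes at 90, 64 and 11 bases, the Kat2b window 1 at 70 bases, and the Dnmt3b window neither motif. The downstream start of Uhrf1, not shown, held no E2F-type core and had CCAAT boxes at 150 and 107 bases. The downstream start of Kat2b held neither motif. Of all 32851 such windows, 4.19% held the E2F-type core and 33.8% a CCAAT box. Windows were found for 39 of the 45 members, 57 starts in all, of which 4 held the E2F-type core (7.02%) and 21 a CCAAT box (36.8%). The members with the core were Uhrf1, Prmt1, Suv39h2 and Suz12. A match is a description of letters and not a binding site.

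With 1 library per genotype, no difference between single libraries has a replicate check and none has a p-value. A gene was instead called past a size rule of 2-fold, or of 1.5-fold, if its log2 ratio of scaled counts reached that size, its mean was at least 2 CPM and the 95% counting interval of its fold excluded 1. Folds are given with that interval, which covers counting error only. Intervals this narrow say how well 2 libraries were counted, not how mice differ.

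The first comparison sets the library labelled double KO beside wild type, to see the members where both ligases are labelled as lost. In all 9 members passed the 2-fold rule, and they were spread over the DNA methylation genes, both sides of acetylation and single lysine and arginine modifiers. Higher were Uhrf1, the acetyltransferase gene Kat2b and the methyltransferase gene Whsc1. Lower were Hdac7, Dnmt3a, Kdm2b, Hdac9, Dnmt3b and Carm1. That made 3 of 44 members higher, where 12.3% of all genes tested were higher, and 6 of 44 lower, where 6.34% of all genes were lower. At 1.5-fold 6 members were higher (all genes 20.5%) and 11 lower (all genes 17.5%). The median log2 ratio was -0.23 over the 44 members and -0.03 over all genes, while the median size of the ratio, 0.46 and 0.43, was nearly the same.

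**Figure D1:**
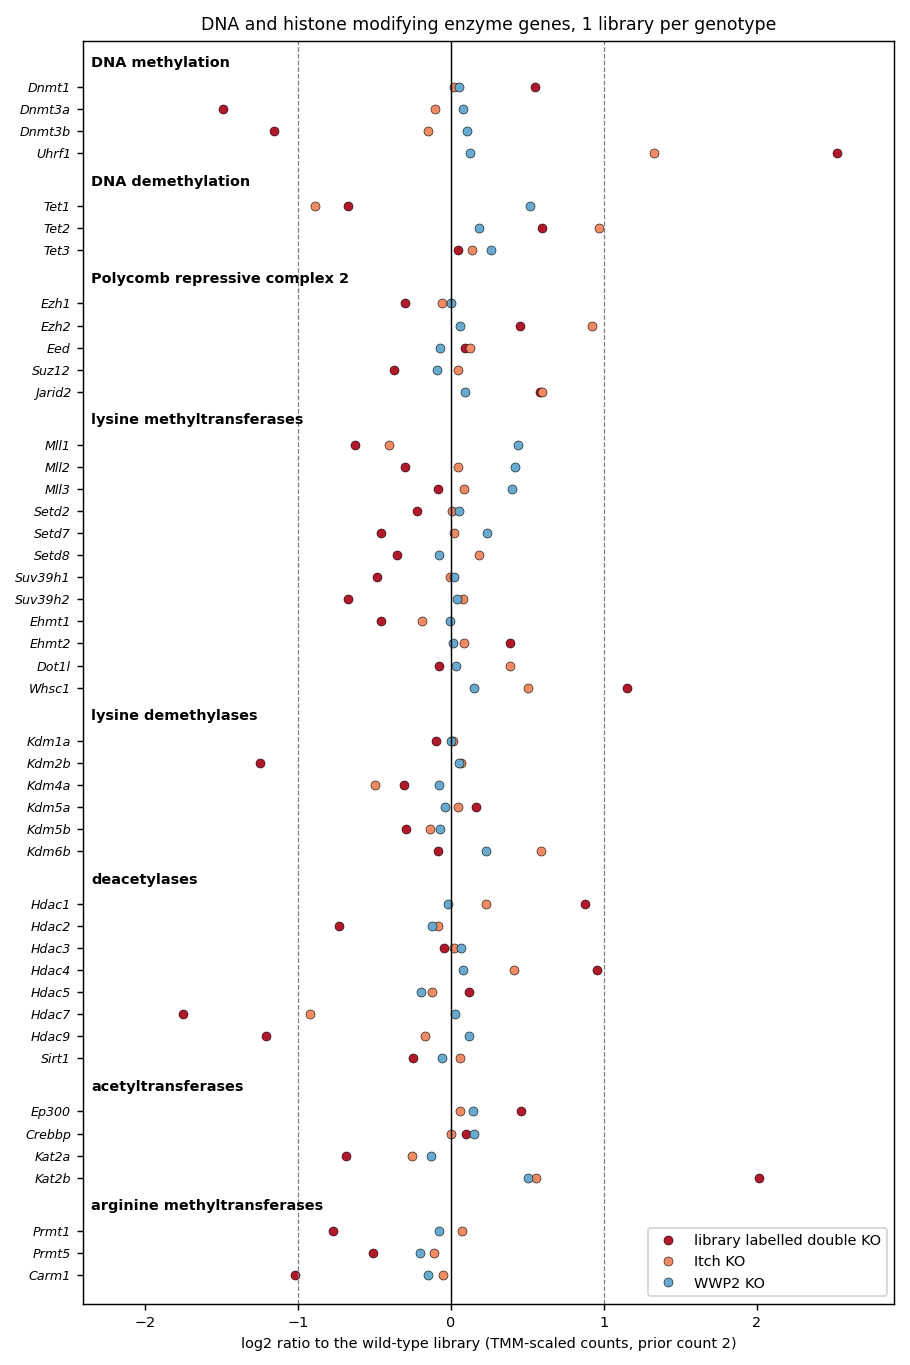
Log2 ratio of each of the 45 members to the wild-type library, on the horizontal axis, for the library labelled double KO (dark red), Itch KO (orange) and WWP2 KO (blue), with genes grouped by role. Dashed lines mark a ratio of 2-fold either way; Uhrf1 lies past the right line in the library labelled double KO (2.52) and in Itch KO (1.33), and every WWP2 KO point lies between the lines.

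Of the DNA methylation genes, Uhrf1 was higher and both de novo methyltransferase genes were lower than in wild type. Uhrf1 had 1118 reads in the library labelled double KO, 456 in the Itch KO, 194 in the WWP2 KO and 180 in wild type, 5.79-fold higher in the first than in wild type (4.95 to 6.82). The libraries labelled as lacking Itch were both above the others, and the library labelled double KO was above Itch KO. Dnmt1 had 3207 reads in the library labelled double KO, 2070 in the Itch KO, 2098 in the WWP2 KO and 2040 in wild type, 1.47-fold the wild-type level (1.39 to 1.55), short of either rule. Here only the library labelled double KO stood apart.

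Dnmt3a had 2013 reads in the library labelled double KO, 4894 in the Itch KO, 5503 in the WWP2 KO and 5262 in wild type, and was 2.80-fold lower than wild type (2.66 to 2.95). Dnmt3b had 265, 499, 587 and 552 reads in that order and was 2.23-fold lower (1.93 to 2.59). In each gene the Itch KO library lay with WWP2 KO and wild type, and the library labelled double KO lay alone below them. Per kilobase of exon, Dnmt1 was at 27.4 and Dnmt3a at 10.9 CPM in the library labelled double KO, but at 18.7 and 30.6 CPM in wild type. In RNA, the order of the maintenance and the main de novo enzyme gene was thus turned round. The ratio of Dnmt1 to Dnmt3a was 2.51 in the library labelled double KO, 0.665 in the Itch KO, 0.600 in the WWP2 KO and 0.610 in wild type. That order rests on the exon length used for each gene, and protein was not read here. Mitosis gene sums, given above, were likewise highest in the library labelled double KO, with Itch KO next; their part in these differences was not tested.

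**Figure D2:**
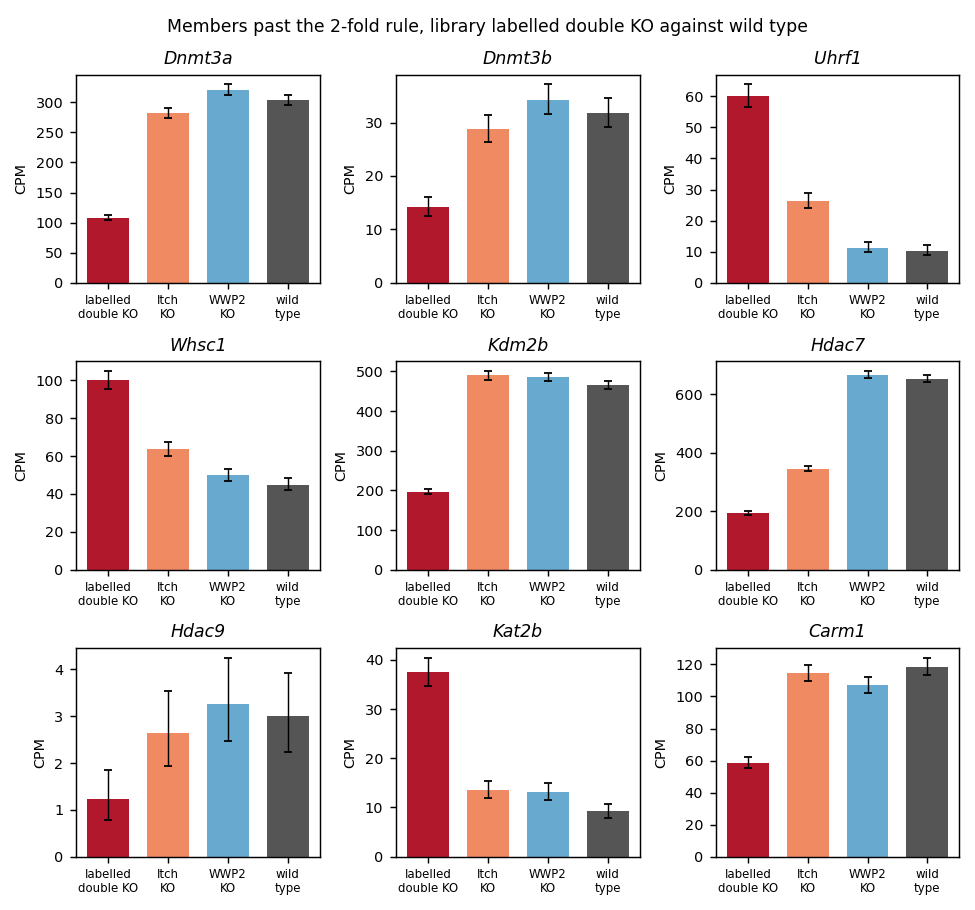
Level in CPM (vertical axes, each from 0) of the 9 members past the 2-fold rule between the library labelled double KO and wild type, with 1 bar per library and its exact Poisson 95% interval. Dnmt3a, Dnmt3b, Kdm2b and Carm1 are low in the library labelled double KO alone, whereas Uhrf1 and Hdac7 also differ in Itch KO.

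The Tet genes did not follow the de novo methyltransferases. Tet2 had 2561 reads in the library labelled double KO, 3089 in the Itch KO, 1772 in the WWP2 KO and 1576 in wild type, so that both libraries labelled as lacking Itch were above both others and Itch KO was the highest. Its fold over wild type was 1.52 (1.42 to 1.62) in the library labelled double KO and 1.96 (1.84 to 2.08) in Itch KO. Tet3 stayed between 3022 and 3591 reads. Tet1 had 14 reads in the library labelled double KO, 11 in the Itch KO, 32 in the WWP2 KO and 22 in wild type, too few for a statement.

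Polycomb repressive complex 2 had 0 of 5 members past either rule when the library labelled double KO was set beside wild type, with log2 ratios between -0.37 for Suz12 and 0.58 for Jarid2. In Itch KO against wild type the catalytic gene Ezh2 and the recruiting subunit gene Jarid2 passed the 1.5-fold rule as higher (all genes 8.79%). Ezh2 had 1584 reads in the library labelled double KO, 2049 in the Itch KO, 1116 in the WWP2 KO and 1081 in wild type, 1.89-fold higher in Itch KO than in wild type (1.76 to 2.04). Jarid2 had 4568, 4303, 3009 and 2849 reads in that order, and its Itch KO fold was 1.51 (1.44 to 1.58). Both genes were higher in both libraries labelled as lacking Itch than in the others. Ezh1, the alternative catalytic subunit, stayed between 1070 and 1230 reads, and per kilobase of exon the ratio of Ezh2 to Ezh1 was 3.21 in the library labelled double KO, 3.75 in the Itch KO, 1.99 in the WWP2 KO and 1.91 in wild type. Eed stayed between 1523 and 1851 reads, and Suz12 between 4107 and 5117.

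Among the 12 lysine methyltransferase genes 1 passed the 2-fold rule in the library labelled double KO, as higher (all genes 12.3%). Whsc1, which encodes the enzyme NSD2, had 1860 reads there, 1106 in the Itch KO, 855 in the WWP2 KO and 779 in wild type, 2.23-fold the wild-type level (2.05 to 2.42). Both libraries labelled as lacking Itch were above the others. Suv39h2, of the pair that writes the heterochromatin mark, had 183, 289, 278 and 273 reads in that order and was 1.60-fold lower than wild type (1.32 to 1.94) in the library labelled double KO alone. Its partner Suv39h1 had a log2 ratio of -0.48 and the Setd8 gene, whose enzyme acts in dividing cells, -0.35. Mitosis genes as a list had a median of 3.42, and their part in these values was not tested. Ehmt1 and Ehmt2, whose products form one complex that marks silent chromatin, had log2 ratios of -0.46 and 0.39. Dot1l, which encodes an enzyme that marks transcribed genes, had 8334 reads in the library labelled double KO, 10765 in the Itch KO, 8327 in the WWP2 KO and 8210 in wild type, so that Itch KO alone was higher. Setd2 and Setd7 had log2 ratios of -0.22 and -0.45. For 9 of the 12 genes neither rule was passed in that comparison (at 1.5-fold, all genes 20.5% higher and 17.5% lower).

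The Mll genes, whose products methylate histones at promoters and enhancers, were highest in WWP2 KO. Mll1 had 5419 reads in the library labelled double KO, 5904 in the Itch KO, 10440 in the WWP2 KO and 7793 in wild type. The WWP2 KO library was the highest and the wild type second, and the library labelled double KO was 1.54-fold under wild type (1.49 to 1.60) and 2.09-fold under WWP2 KO (2.02 to 2.16). Mll2 had 5361, 6366, 8129 and 6152 reads in that order, and Mll3 1204, 1263, 1557 and 1190. The symbol Mll2 has named 2 genes; the other one, Wbp7, has a row of its own in the table, so Mll2 is read here as Kmt2d.

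Of 6 demethylase genes 1 passed a rule in this comparison, as at least 2-fold lower (all genes 6.34%). It was Kdm2b, which encodes a lysine demethylase that also brings a Polycomb complex to CpG islands, with 3653 reads in the library labelled double KO, 8498 in the Itch KO, 8325 in the WWP2 KO and 8092 in wild type. It was 2.37-fold lower than wild type in the library labelled double KO (2.28 to 2.47), and the other 3 libraries lay together. Kdm6b, which encodes the enzyme that removes the Polycomb mark, had 16043, 23945, 18385 and 15878 reads in that order. Here Itch KO stood above the rest, 1.51-fold over wild type (1.48 to 1.54), and the library labelled double KO was at 0.943-fold (0.922 to 0.964). Per kilobase of exon Kdm6b had the highest mean level of the 45 members, 159 CPM. Kdm1a, Kdm4a, Kdm5a and Kdm5b had log2 ratios between -0.30 and 0.17 against wild type in the library labelled double KO.

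The deacetylases held the lowest ratio of all members. Hdac7, a class IIa deacetylase gene known for its part in thymocytes, had 3609 reads in the library labelled double KO, 5998 in the Itch KO, 11416 in the WWP2 KO and 11322 in wild type. It was 3.36-fold lower than wild type in the library labelled double KO (3.24 to 3.49) and 1.89-fold lower in Itch KO (1.83 to 1.95), and WWP2 KO equalled wild type within counting error (1.02-fold, 0.993 to 1.05). Of the other class IIa genes, Hdac4 went the opposite way, with 1225, 787, 617 and 589 reads in that order, 1.94-fold over wild type in the library labelled double KO (1.76 to 2.14). Hdac9, near the low filter, had 23, 46, 56 and 52 reads and was 2.42-fold lower (1.46 to 4.15). Hdac5 stayed between 390 and 526 reads.

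The class I deacetylases, which work in shared complexes, differed in direction. Hdac1 had 2982 reads in the library labelled double KO, 1779 in the Itch KO, 1478 in the WWP2 KO and 1515 in wild type, 1.84-fold over wild type (1.73 to 1.95). Hdac2 had 1640, 2394, 2309 and 2540 reads and was 1.66-fold lower (1.56 to 1.77). Hdac3 stayed between 1263 and 1311 reads. Per kilobase of exon the ratio of Hdac1 to Hdac2 was 3.78 in the library labelled double KO, 1.54 in the Itch KO, 1.33 in the WWP2 KO and 1.24 in wild type. Sirt1, a deacetylase gene of the sirtuin class, had between 955 and 1105 reads.

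Acetyltransferase genes also differed in direction between close relatives. Kat2b, which encodes PCAF, had 696 reads in the library labelled double KO, 235 in the Itch KO, 224 in the WWP2 KO and 159 in wild type, 4.08-fold over wild type in the first (3.43 to 4.88). Kat2a, which encodes the related GCN5, had 1279, 1610, 1734 and 1920 reads and was 1.61-fold lower. Per kilobase of exon Kat2b stayed the less abundant of the pair, with a ratio to Kat2a of 0.356 in the library labelled double KO, 0.0956 in the Itch KO, 0.0846 in the WWP2 KO and 0.0542 in wild type. Ep300 and Crebbp, which encode the general coactivators p300 and CBP, had log2 ratios of 0.46 and 0.10 against wild type.

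The 3 arginine methyltransferase genes of the set all had lower scaled counts than wild type in the library labelled double KO. At 1.5-fold 2 were lower there (all genes 17.5%). Carm1 had 1088 reads there, 1985 in the Itch KO, 1838 in the WWP2 KO and 2058 in wild type, 2.03-fold lower than wild type (1.88 to 2.18), which is at the edge of the rule: with total counts in place of the scaling its log2 ratio was -0.95 and it was not called. Prmt1, which encodes the main enzyme of the class, had 2444, 4101, 3655 and 3896 reads and was 1.71-fold lower (1.62 to 1.80). Prmt5 had 2177, 2688, 2490 and 2895 reads, with a log2 ratio of -0.51. In Prmt1 and Carm1 the other 3 libraries lay close together. Arginine methyltransferase genes outside the set went both ways. Prmt2 had 231 reads in the library labelled double KO and 125 in wild type, 1.72-fold higher (1.38 to 2.16). Prmt3 (1192 and 2074 reads), Prmt6 (855 and 1193) and Prmt7 (809 and 1656) had fewer. Of the 44 members tested, 27 passed neither rule in this comparison, with log2 ratios from -0.51 to 0.58.

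Loss of Itch alone was read from Itch KO set beside wild type. Of 44 members 1, Uhrf1, was at least 2-fold higher (2.53-fold, 2.13 to 3.03), where 4.89% of all genes were, and 0 were lower, where 0.846% of all genes were. At 1.5-fold 5 members were higher, Uhrf1, Tet2, Ezh2, Jarid2 and Kdm6b (all genes 8.79%), and 1 lower, Hdac7 (all genes 4.39%). The other 38 had log2 ratios between -0.49, for Kdm4a, and 0.56, for Kat2b. Dnmt3a and Dnmt3b were at 0.930-fold (0.894 to 0.967) and 0.904-fold (0.799 to 1.02). The median size of a log2 ratio was 0.11 over members and 0.18 over all genes. Itch KO was at least 1.25-fold above each remaining library for 4 members, Tet2, Ezh2, Dot1l and Kdm6b (all genes 2.19%), and at least that far below for 0 (all genes 3.83%).

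WWP2 KO against wild type gave 0 of 44 members past the 2-fold rule in either direction, where 0.282% of all genes were higher and 0.161% lower, and 0 past the 1.5-fold rule, where 1.19% were higher and 0.756% lower. Log2 ratios ran from -0.20 for Hdac5 to 0.51 for Kat2b. Mll1, Mll2 and Mll3 came next, with log2 ratios of 0.44, 0.42 and 0.40, or 1.35-fold, 1.34-fold and 1.32-fold. These are long genes, with 16470, 19830 and 14967 bases of exon. Over all genes in this comparison the median log2 ratio was -0.08 for the 1212 genes under 1500 bases of exon and 0.10 for the 677 genes over 8000 bases, so length moved with the ratio; its part in the Mll values was not tested. Of the 14 members tested that have over 8000 bases of exon, 12 had log2 ratios above 0, with a median of 0.15 and a range from -0.07 for Kdm5b to 0.44 for Mll1; Whsc1, at 15546 bases, was at 0.15. WWP2 KO was at least 1.25-fold above each remaining library for 2 members, Mll1 and Mll2 (all genes 1.48%), and at least that far below for 0 (all genes 2.10%).

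**Figure D3:**
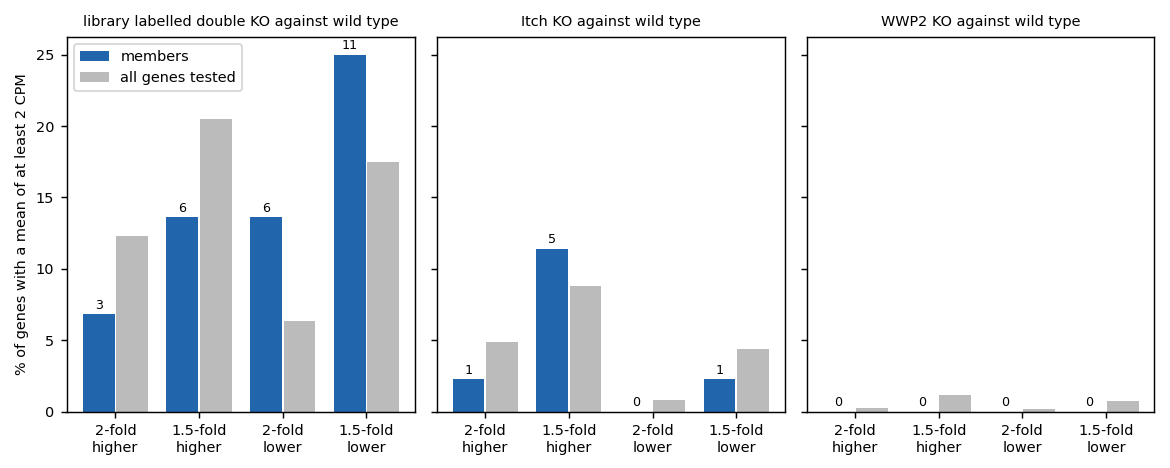
Share, in percent on the vertical axis, of the 44 members (blue, with the number of members above each bar) and of all 9926 genes tested (grey) past each size rule, for the library labelled double KO, Itch KO and WWP2 KO, each against wild type. In the library labelled double KO 11 of 44 members and 17.5% of all genes were at least 1.5-fold lower, and 6 of 44 members and 20.5% of all genes at least 1.5-fold higher.

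The library labelled double KO was also set against Itch KO, from which it should differ by the WWP2 label. At 2-fold 2 members were higher, Kat2b and Uhrf1 (all genes 9.18%), and 4 lower, Dnmt3a, Kdm2b, Hdac9 and Dnmt3b (all genes 5.16%). Kat2b was 2.76-fold higher (2.38 to 3.22) and Uhrf1 2.29-fold (2.05 to 2.56), while Dnmt3a was 2.61-fold lower (2.47 to 2.75) and Kdm2b 2.49-fold lower (2.40 to 2.59). At 1.5-fold 4 members were higher (all genes 19.5%) and 10 lower (all genes 14.5%). Against WWP2 KO 3 members were at least 2-fold higher, Uhrf1, Kat2b and Whsc1 (all genes 11.6%), and 6 lower, Dnmt3a, Dnmt3b, Mll1, Kdm2b, Hdac7 and Hdac9 (all genes 6.05%), and at 1.5-fold 5 were higher (all genes 19.6%) and 12 lower (all genes 16.8%). It exceeded every other library by at least 1.5-fold for Uhrf1, Whsc1, Hdac1 and Kat2b, 4 of 44 members (all genes 14.4%). It was at least 1.5-fold under every other library for Dnmt3a, Dnmt3b, Suv39h2, Kdm2b, Hdac2, Hdac7, Hdac9, Prmt1 and Carm1, 9 of 44 (all genes 10.8%). Since Wwp2 was read in that library, these values compare libraries, and the WWP2 state of this one is in doubt.

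Among the libraries, 2 pairs differ in the Itch label and share no library: Itch KO with wild type, and the library labelled double KO with WWP2 KO. Of 44 members 27 (61.4%) had the same direction in both, and of all genes 64.2%. Uhrf1 was past the 1.5-fold rule as higher in both pairs (log2 ratios 2.40 with the library labelled double KO, 1.33 with Itch KO). Hdac7 was past it as lower in both, at -1.78 and -0.92 in that order, and 0 members passed it in opposite directions. Of the 9926 genes tested, 705 were past it as higher in both pairs, 245 as lower in both and 59 in opposite directions. Dnmt3a, Dnmt3b and Kdm2b had ratios of -1.57, -1.26 and -1.30 in the pair with the library labelled double KO but of -0.11, -0.15 and 0.07 in the pair with Itch KO. Across genes, which are not independent and share these 4 libraries, Pearson's r was 0.73 for members and 0.70 for all genes.

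**Figure D4:**
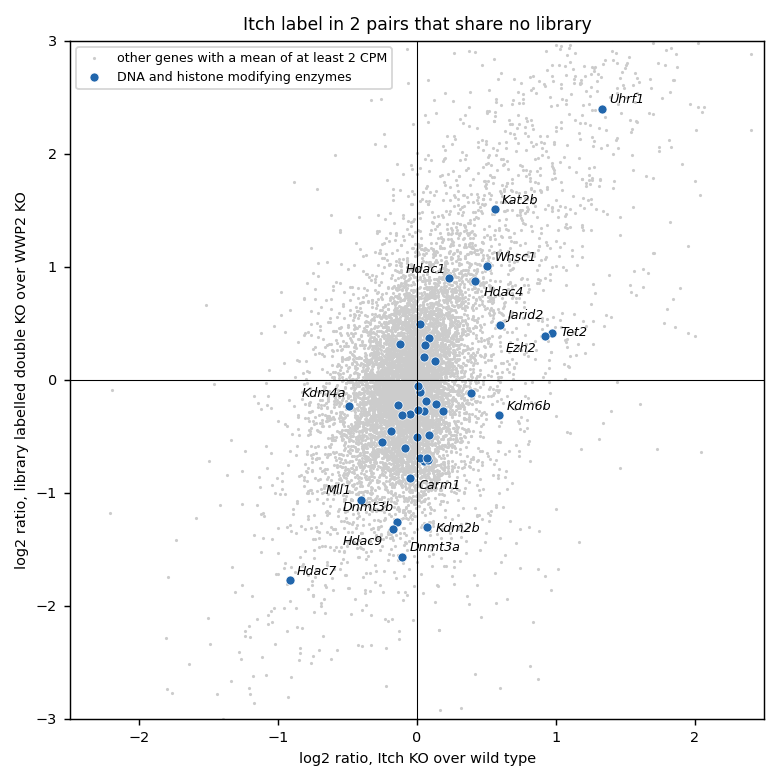
Log2 ratio of the library labelled double KO over WWP2 KO (vertical axis) against that of Itch KO over wild type (horizontal axis) for the 44 members (blue) and other genes (grey; 277 lie outside the axes). Uhrf1 is far along both axes upward and Hdac7 along both downward, whereas Dnmt3a, Dnmt3b and Kdm2b are low on the vertical axis and near 0 on the horizontal one.

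The 2 libraries labelled as lacking Itch did not overlap with the others for 11 of 44 members that were higher (all genes 24.1%) and 11 that were lower (all genes 27.0%). The gap was at least 1.25-fold for 6 of the higher ones, Uhrf1, Tet2, Ezh2, Jarid2, Whsc1 and Hdac4 (all genes 9.67%), and for 2 of the lower ones, Hdac7 and Mll1 (all genes 5.66%). A test over samples was run on this label, with 2 libraries a side, by edgeR's quasi-likelihood test with Benjamini-Hochberg adjustment over 11197 genes. None was run on the WWP2 label, which the Wwp2 reads put in doubt for 1 library. The test on the Itch label called 0 of 45 members, and 1 gene in all, Il5 (0.00893% of genes). At an unadjusted p under 0.05 there were 9 members (20.0%) and 1522 genes (13.6%), and DESeq2 called 1 of 45 members higher, Uhrf1 (all genes 5.59%), and 1 lower, Hdac7 (all genes 0.875%). By edgeR, Uhrf1 had a log2 difference of 2.01 (SE 0.44, adjusted p = 0.248), Hdac7 one of -1.28 (SE 0.30, adjusted p = 0.256), Tet2 0.71 (SE 0.18, adjusted p = 0.271) and Jarid2 0.55 (SE 0.14, adjusted p = 0.264).

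The count depended on which libraries were pooled. Without the library labelled double KO, whose label is in doubt, edgeR set Itch KO against WWP2 KO and wild type, the lone library being assumed to vary like the others, and called 7 members higher (all genes 8.57%) and 3 lower (all genes 5.03%). Of the members that fit picked out, higher in Itch KO were Uhrf1 (1.28 on the log2 scale), Tet2 (0.88), Ezh2 (0.90), Jarid2 (0.55), Kdm6b (0.48), Whsc1 (0.43) and Dot1l (0.38). Lower were Hdac7 (-0.93), Mll1 (-0.63) and Kdm4a (-0.45). Without Itch KO, the library labelled double KO against the same 2 libraries had 11 members higher (all genes 28.6%) and 19 lower (all genes 24.9%), led by Uhrf1 (2.48) and Hdac7 (-1.75). Nothing says that libraries came from separate mice, and WWP2 KO is used here as a second wild type. The p-values of the label test above therefore measure only the spread between these libraries.

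Partner genes of the same chromatin pathways, 154 in 8 lists that leave the members out, were counted by the same rule. Beside wild type, the library labelled double KO had 10 of 149 tested at least 2-fold higher (6.71%, all genes 12.3%) and 7 lower (4.70%, all genes 6.34%). Itch KO had 1 higher (0.671%, all genes 4.89%) and 0 lower (all genes 0.846%), and WWP2 KO had 0 either way (all genes 0.282% higher and 0.161% lower). Of the DNA methylation readers Zbtb38, which encodes a protein that binds methylated DNA, had 1040 reads in the library labelled double KO, 255 in the Itch KO, 213 in the WWP2 KO and 219 in wild type, 4.43-fold over wild type (3.83 to 5.15), and Mbd5 was 2.38-fold higher (1.91 to 2.98). Of 28 Polycomb partners 3 were at least 2-fold higher (all genes 12.3%) and 3 lower (all genes 6.34%). Pcgf2 (4.54-fold, 3.07 to 6.92), Cbx8 and Phf19 were higher, and Scmh1, Pcgf6 and Cbx7 lower. Cbx7 had 1026, 1438, 2109 and 1940 reads in that order.

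A list of histone chaperones and other chromatin assembly factors held some that act outside replication. Of its 13 genes 2 were at least 2-fold higher (all genes 12.3%), Asf1b (7.69-fold, 5.89 to 10.2) and Chaf1a (4.19-fold, 3.24 to 5.46). Ssrp1, of the FACT complex, had a log2 ratio of -0.70. Of 31 partners of methyltransferase (COMPASS) and deacetylase complexes, 2 were at least 2-fold lower, Tbl1x (2.78-fold) and Rcor2 (2.41-fold), where 6.34% of all genes were. The sirtuin gene Sirt2 (2.03-fold), the coactivator gene Ncoa3 (2.08-fold) and Prdm10 (2.82-fold) were higher, and Prmt7 (2.19-fold) and Smyd5 (2.01-fold) lower. The 17 other histone demethylase genes tested had 0 past either rule (at 1.5-fold, all genes 20.5% higher and 17.5% lower), with log2 ratios from -0.50 to 0.56. In the same comparison replication genes were at least 2-fold higher in 11 of 25 cases, with a median log2 ratio of 0.73. Mitosis genes were so in 22 of 22 (all genes 12.3%). The part of both lists in the values of the assembly factors was not tested.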

How the data were processed

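The values were raw counts of reads per gene symbol, deposited by the authors in 1 table of 4 libraries with no normalization. Per the submitters' processing notes, which give no roles, the build was mm9 and the tools included HTSeq 0.7.1, TopHat 1.4.1 and Bowtie 1.0.0; the annotation and strand setting are not stated there, so overlapping or near-identical genes can share or lose reads. Counts were scaled by TMM factors (0.983 to 1.03; edgeR 4.0.16, R 4.3.3), and log2 ratios used a prior count of 2. Fold intervals are exact conditional binomial 95% intervals; they cover counting error only, and no molecular identifiers are named in the labels. Exon lengths (union over GENCODE M21 basic transcripts, GRCm38) matched 99.2% of genes tested. The labels were tested with edgeR, with DESeq2 1.42.0 as an alternative. Simulated libraries took mean levels over all 4 libraries, with changes placed in both labelled as lacking Itch. In labelled double KO against wild type (9918 genes, dispersion 0.05), the 2-fold rule recovered 52.0% of 2-fold changes, which lie at its cut. It made 352 false calls, and the 1.5-fold rule made 2107. At a dispersion of 0.01 (9919 genes) false calls numbered 4 and 171. Simulated at 0.05 (11250 genes), edgeR's label test recovered 10.5% of 2-fold changes with 0 false calls. The label fit's common dispersion was 0.067. That fit took the libraries on each side of the Itch label as replicates, so the value mixes differences between genotypes with noise. It does not say which simulated dispersion applies. Members and lists were chosen with earlier results of these data known. Counts per library are given for members past the 2-fold rule in any comparison or the 1.5-fold rule between labelled double KO and wild type, for relatives and for the extremes of a role; Dot1l, Kdm4a, Il5 and the pairs of relatives were chosen after their values were seen. Of each partner list up to 3 genes at either end are named. Other computation used Python 3.11.15.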

Additional observations from a re-analysis of the deposited data

Results flagged for a closer look

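In all 6 members differed in direction between the 2 pairs of libraries that contrast the Itch label, with a counting interval that excluded 1 in each pair. The pairs are the library labelled double KO over WWP2 KO, given first here, and Itch KO over wild type. Kdm6b had log2 ratios of -0.31 and 0.59, Dot1l -0.12 and 0.39, Setd8 -0.28 and 0.19, and Tet3 -0.22 and 0.14. Kdm2b, at -1.30 and 0.07, and Prmt1, at -0.70 and 0.07, were low in the first pair and near level in the second. The rule was applied to members only, so no share over all genes stands beside the count of 6. Without regard to intervals, 61.4% of members and 64.2% of all genes had the same direction in both pairs. With 1 library on each side the difference between the pairs was not tested.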

How the results depend on the processing

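Counts of members past the 2-fold and the 1.5-fold rule kept within 1.5 times of the values given under DESeq2 size factors, total counts, no low filter, a minimum of 10 CPM and a prior count of 0.5, except that total counts gave 2 members, not 4, at least 2-fold lower in the library labelled double KO against Itch KO; the alternatives for the 1.5-fold rule were added after seeing the data. Total counts also brought Hdac4 past the 2-fold rule (1.02) and took Carm1 out of it (-0.95), and the minimum of 10 CPM removed Hdac9. The share of members with the same direction in the 2 separate pairs was 59.1% to 61.4%. Counts over all genes moved more with the low filter (10 CPM to none): 666 to 1924 higher in the library labelled double KO when set beside wild type (1220 as given), 233 to 720 higher and 45 to 183 lower in Itch KO (485 and 84), and 6 to 117 higher and 7 to 56 lower in WWP2 KO (28 and 16); 452 to 1421 higher in the library labelled double KO against Itch KO (911), and 625 to 1780 higher and 392 to 850 lower against WWP2 KO (1155 and 601). In the test on the Itch label, 1 gene was higher and 0 lower; DESeq2 gave 626 and 98, and an additive design with a WWP2 term 161 and 14. Of members, DESeq2 called 1 higher and 1 lower, and the additive design 1 higher, Uhrf1. Leaving out 1 library at a time gave 1 to 3326 genes higher and 0 to 2894 lower, and 0 to 11 members higher and 0 to 19 lower; the highest counts came without Itch KO, and 975 and 572 genes without the library labelled double KO. The cause was not tested. Without WWP2 KO or without wild type 0 members were called. No paired analysis was possible because each genotype has a single library. Depth limits Tet1 and Hdac9, at 11 to 56 reads.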
